A study of Saccharomyces cerevisiae with 4 samples.

Results

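Transcript levels in Saccharomyces cerevisiae cells lacking lpz8 and grown in high copper were set against those of wild-type cells on 2 two-channel arrays, of 4 arrays in the whole series. Both arrays were chosen by their titles, which name high copper, and 1 of them is marked as a repeat. On each array, total RNA of wild-type cells carried Cy3 and total RNA of the null cells carried Cy5. The other 2 arrays held null cells from low copper and are used here to set the spread and for comparison. Haa1 appears in the title of the series, and the lpz8 of the labels is taken here to be HAA1, which the values of the HAA1 spot also bear on. The strain background, the way the gene was removed, the number of null clones, the copper concentrations, the copper in which wild-type cells grew and the separation of cultures are details that the sources used here do not give. The dyes were never swapped, and an effect of dye on any 1 gene cannot be told apart from the genotype.

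Haa1 is a transcription factor with a copper-fist DNA-binding domain, the fold that it shares with Ace1, the activator of copper detoxification genes, and Mac1, the activator of copper uptake genes. It is known mainly as an activator of genes for membrane transporters, cell wall proteins and small stress proteins in cells exposed to weak acids. The comparison therefore addresses which transcripts differ between null cells in high copper and wild-type cells, and whether genes of copper handling are among them. Since the copper of the wild-type cells is not given, effects of copper and of genotype cannot be told apart, also in the difference between conditions. Direct and indirect effects of the factor cannot be told apart either.

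Each value is the log2 of the null signal over the wild-type signal after centring the array on its median. Below 0 the transcript was lower in null cells. The high copper array marked repeat held 8409 values over 8832 spots and the unmarked high copper array held 8318. Between them 5538 named genes were measured on both. Across these genes the high copper arrays correlated at a Pearson r of 0.695, against 0.455 for the low copper pair and 0.359 to 0.519 between conditions, and genes are not independent replicates. A gene's values on the high copper arrays lay 0.12 apart at the median, and 105 genes (1.90%) lay over 1 apart. In RNA of whole cultures, a lower level in every cell and fewer cells with the transcript cannot be told apart.

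A stretch of the array marked repeat carried values that belonged to other spots. Over a run of 528 spots, its values correlated with those of the same spot on the unmarked array at a Spearman rho of 0.011, and with those of the spot 24 places further on at 0.659. Both low copper arrays gave the same order, with -0.080 against 0.428 on the unmarked array and 0.0092 against 0.464 on the array marked repeat. The run fills all but the last 24 spots of block 4 of the 16 blocks of 552 spots into which the table was divided. Within the array itself, spots of 1 gene set 456 places apart in this block correlated at 0.425 over 32 pairs as deposited and at 0.871 over 42 pairs after the move, against 0.782 over 599 pairs in other blocks. The values were therefore moved 24 spots on, which affects 405 genes, of which 311 have spots in this block alone. Results for genes of this block are named as such.

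**Figure D1:**
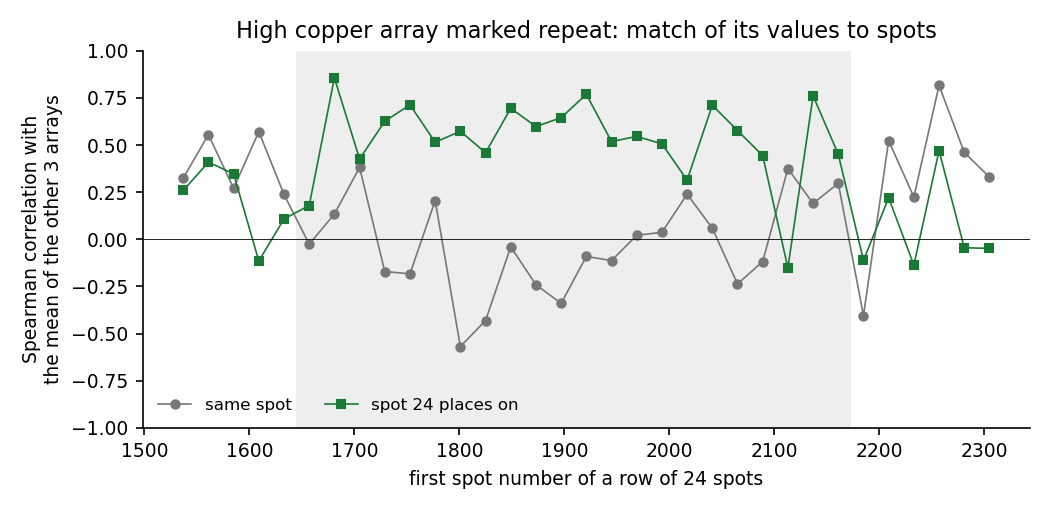
Spearman correlation (y axis) between the high copper array marked repeat and the mean of the other 3 arrays, for consecutive rows of 24 spots (x axis, number of the first spot), at the same spot (grey circles) and at the spot 24 places on (green squares). In the shaded stretch, the run of 528 spots, most green squares lie above the grey circles.

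HAA1 was the gene furthest below 0 by its mean. Its log2 ratio was -6.96 on the array marked repeat and -4.15 on the unmarked array, and -7.35 on the low copper array marked repeat, the only low copper array with a value. All 3 values lie on the side that a gene deleted in the null cells would take. The high copper values lay 2.82 apart, and the mean of -5.55 ± 1.99 (SD, n = 2) did not pass the threshold in the limma fit (adjusted p = 0.0861). Its fold is left out, since channel intensities were not used here and a deleted gene may give no signal above background.

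In high copper, 78 of 5538 genes were lower (1.41%) and 47 were higher (0.849%) in null cells at an adjusted p below 0.05, from limma with the spread shared over all 4 arrays. Without adjustment 1434 genes lay below 0.05. Each of the 125 called genes had 1 sign on both arrays, and the smallest called mean was 0.62 in size. The gap between these arrays enters the spread of the test, so a shared sign is favoured by the call itself. Without a test, 57 genes lay at least 2-fold lower on both arrays (1.03%) and 44 at least 2-fold higher (0.795%), of which 39 and 25 were among the calls. Nothing in the labels places the arrays in separate cultures, so these p-values measure only the spread between arrays, which may be technical. They rest on both high copper arrays, since either one left out took the calls to 0. With the high copper pair fitted alone there were 484 calls, which included all 125. With the word repeat taken as a replicate block, on genes measured on all 4 arrays, 0 genes passed. On the deposited spot positions there were 79 calls, all among the 125. Only 8 of the 125 have spots in the moved block, so most of the lost calls were of genes whose own spots did not move. Without centring there were 61, so genes with an adjusted p near the threshold depend on how the arrays were centred. Centring took off medians of 0.009 (marked repeat) and 0.0135 (unmarked) on the high copper arrays. On the low copper arrays these were -0.157 (unmarked) and -0.039 (marked repeat). Why the calls fell was not tested.

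**Figure D2:**
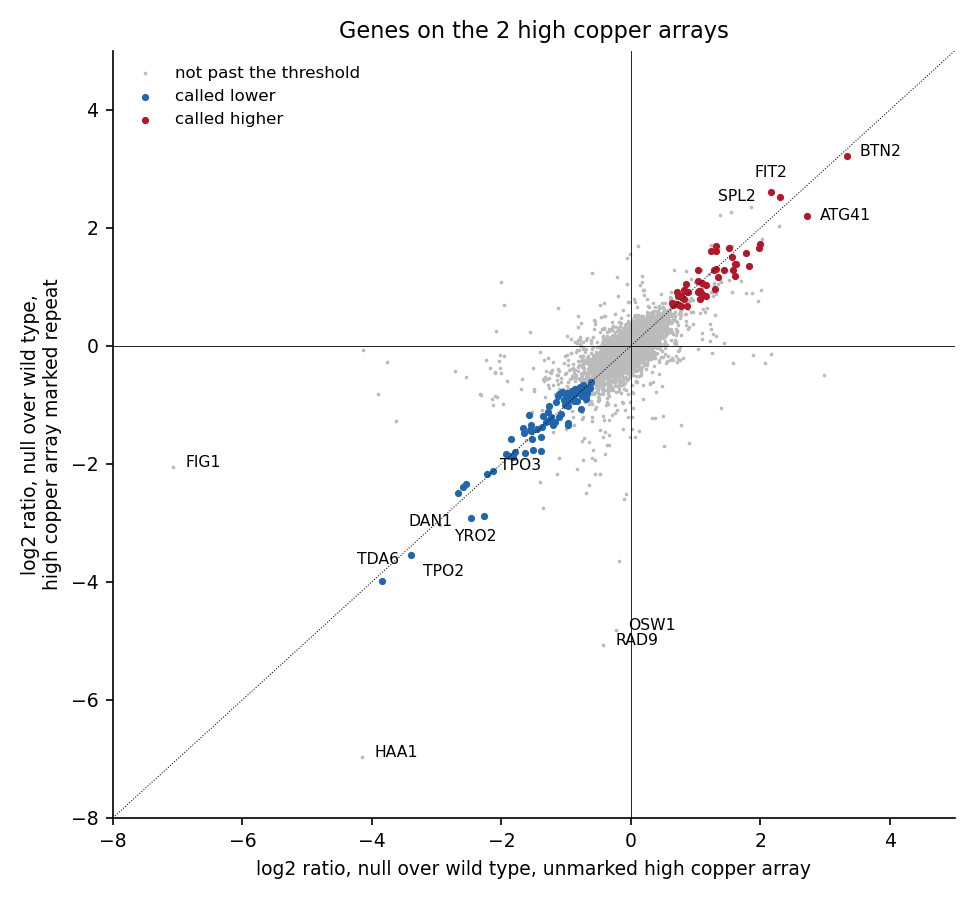
Log2 ratio of null over wild type for 5538 genes on the unmarked high copper array (x axis) and on the array marked repeat (y axis), with 78 called lower in blue, 47 called higher in red and the others in grey. Called genes lie along the dotted line of equal values, while HAA1, FIG1, OSW1 and RAD9 lie far from it and are not called.

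The lowest transcripts were led by genes that the literature places under Haa1. Of the 15 literature targets, 10 fell, 9 of them at least 2-fold on both arrays, and 14 lay below 0 on both. Over all 5538 genes tested, 1.41% fell, 1.03% lay at least 2-fold lower on both arrays, and 2347 lay below 0 on both. The median of the targets was -1.71, where the median of all genes tested was -0.025. The 15 targets were listed with earlier results of these data known, so their count is a description.

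TPO2 and TPO3 encode plasma membrane transporters that export polyamines. TPO2 stood at -3.55 on the array marked repeat and -3.40 on the unmarked array, a mean of -3.47 ± 0.10 (SD, n = 2), or 11.1-fold lower (adjusted p = 0.0109). TPO3, in the moved block, stood at -2.18 and -2.22, or 4.59-fold lower (adjusted p = 0.0109). TPO2 stood further below 0 than its relative in both conditions, with low copper values of -3.25 and -2.79 on the unmarked array and the array marked repeat against -1.66 and -1.44. The position of TPO3 matters here, because the deposited value at its spot on the array marked repeat was -0.30.

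TDA6 (YPR157W), a poorly characterised gene, was the lowest of the called genes at -3.98 and -3.85, a mean of -3.92 ± 0.095 (SD, n = 2), or 15.1-fold lower (adjusted p = 0.0109). YRO2, a membrane protein related to the stress protein Hsp30, stood at -2.88 on the array marked repeat and -2.28 on the unmarked array, 5.97-fold lower (adjusted p = 0.0314). YGP1, a secreted cell wall glycoprotein, differed by less than 0.01 between arrays, at -2.13 and -2.12, and was 4.36-fold lower (adjusted p = 0.0109). TDA6 was lower on both high copper arrays than on either low copper array, where it stood at -3.14 and -2.54. YRO2 ran the other way, with -3.11 and -3.58 in low copper, and YGP1 stood at -2.14 and -1.995 there. None of these differences between conditions passed, as the last comparison shows.

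Among the remaining targets, YLR297W, which has no standard name, stood at -2.39 and -2.60, and PHM8, a nucleotide and lysophosphatidic acid phosphatase in the moved block, at -2.49 and -2.67. Both had an adjusted p of 0.0109. GRE1, a hydrophilic stress protein, was 3.10-fold lower at -1.76 and -1.51. COM2, a zinc-finger transcription factor in the moved block, was 3.27-fold lower at -1.58 and -1.85. GPG1, a protein of the Gpr1 glucose-sensing pathway, fell by 0.999 on the log2 scale. For PHM8 and COM2 the deposited values at their spots on the array marked repeat were -0.33 and -0.32, so their calls depend on the move.

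The other 5 targets did not pass. SUR2, the sphingoid base hydroxylase, stood at -0.73 on the array marked repeat and -1.05 on the unmarked array (adjusted p = 0.0524). HRK1, a kinase that activates the plasma membrane proton pump, stood at -0.73 and -0.45, and SPI1, a cell wall protein, at -0.58 and -0.23. INM1, an inositol monophosphatase, lay near the centre of the array at -0.18 on both. HSP26, a small heat shock protein, was at -0.36 on one array and 0.17 on the other, so its arrays took opposite signs.

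**Figure D3:**
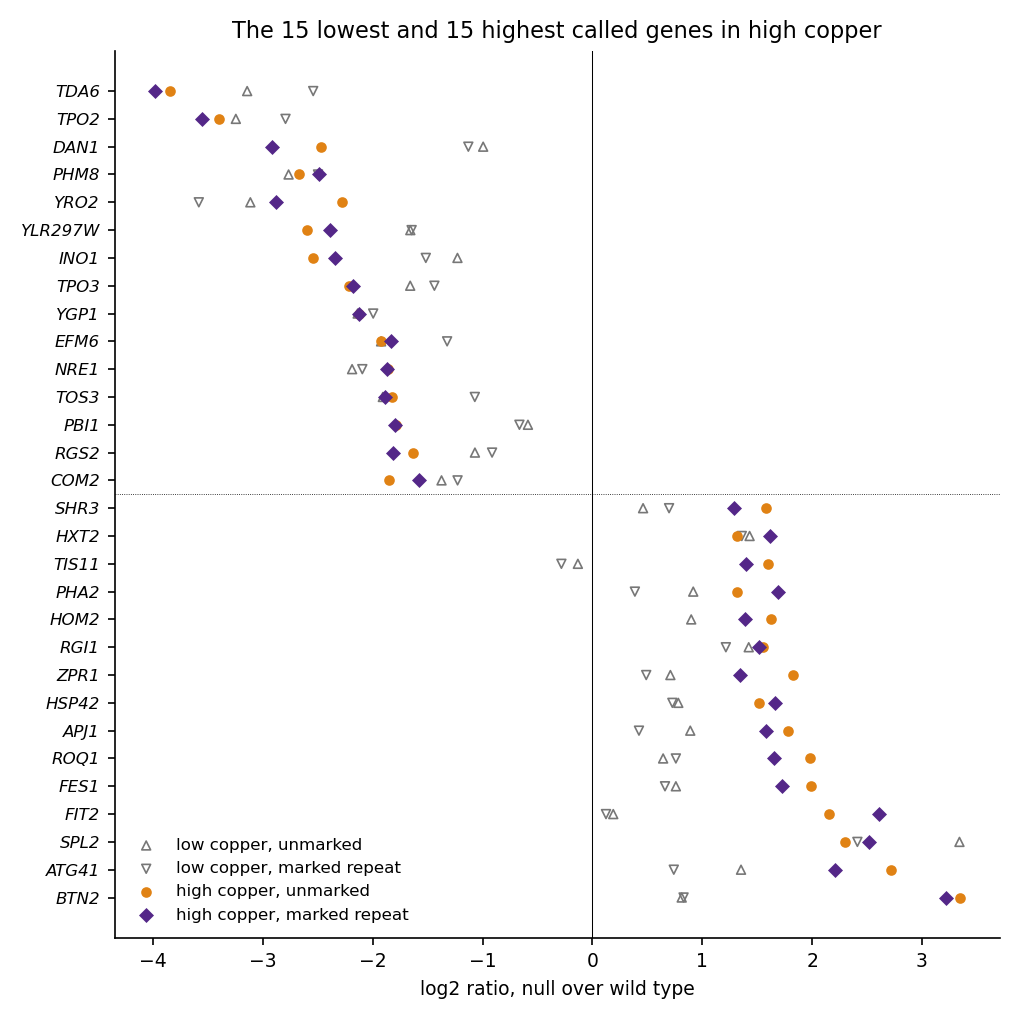
Log2 ratio of null over wild type (x axis) on each of the 4 arrays for the 15 lowest and the 15 highest called genes in high copper, with high copper values filled and low copper values open. For BTN2, FIT2 and TIS11 the high copper values lie above both low copper values by more than 1, and for TDA6, DAN1 and PBI1 they lie below both.

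Several of the 15 lowest genes lay outside the target list. DAN1, a cell wall mannoprotein normally made without oxygen, stood at -2.92 and -2.47, or 6.47-fold lower (adjusted p = 0.0168). INO1, which carries out the committed step of inositol synthesis, stood at -2.35 and -2.54, or 5.44-fold lower (adjusted p = 0.0131). In low copper DAN1 stood at -0.99 and -1.13 and INO1 at -1.23 and -1.52, so both were low in either condition.

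EFM6, which methylates the elongation factor eEF1A, was 3.68-fold lower, and NRE1, a short-chain dehydrogenase, 3.65-fold lower. TOS3, a kinase that activates Snf1, was 3.62-fold lower, with an adjusted p of 0.0475 close to the threshold. RGS2, which turns down the glucose-sensing G protein Gpa2, was at -1.81 and -1.63, and PBI1 at -1.80 and -1.79. PBI1 rested on 2 spots that averaged -1.84 and -1.75, and its low copper values were -0.59 and -0.66. AQR1, a plasma membrane exporter of amino acids chosen after its values were seen, showed a similar gap, with -1.21 and -1.23 in high copper against -0.089 and -0.12 in low copper.

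The 4 highest called genes were BTN2, ATG41, SPL2 and FIT2, of protein quality control, autophagy, phosphate and iron. ATG41, a protein of autophagosome formation, stood at 2.21 and 2.72, or 5.51-fold higher (adjusted p = 0.0359), and at 1.35 and 0.74 in low copper. RGI1, a protein of energy metabolism, rose as well, at 1.51 and 1.56 (adjusted p = 0.0182), with 1.42 and 1.22 in low copper.

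Of 28 chaperone genes placed under the heat shock factor Hsf1, 12 rose and 0 fell, and 25 lay above 0 on both arrays. Over all 5538 genes tested, 0.849% rose, 1.41% fell and 1964 lay above 0 on both arrays. Without centring 6 of the 28 rose. Their median was 0.80. In low copper the same list had medians of 0.20 and 0.15. These proteins refold damaged proteins, hold them in solution or gather them into deposits.

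BTN2, which gathers misfolded proteins into deposits, was the highest of all genes tested. It stood at 3.22 on the array marked repeat and 3.34 on the unmarked array, a mean of 3.28 ± 0.085 (SD, n = 2), or 9.72-fold higher (adjusted p = 0.00929). In low copper it stood at 0.81 and 0.83. CUR1, its relative with the same kind of role, was in the moved block and stood at 0.85 and 0.77 (adjusted p = 0.0414), where the deposited value was 0.28. HSP42, a small heat shock protein that also collects aggregates, was at 1.66 and 1.52, or 3.01-fold higher (adjusted p = 0.017).

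Among genes of the Hsp70 system, SSA4, a stress-induced Hsp70, stood at 1.31 on both arrays and at 0.074 and -0.012 in low copper, so that its high copper values lay well apart from its low copper values. FES1, the exchange factor that lets Hsp70 release its substrates, stood at 1.73 and 1.99, or 3.63-fold higher. SSA2, a constitutive Hsp70, rose as well, with 0.67 and 0.87 (adjusted p = 0.0464). SSA1 stood at 0.92 and 1.23 and did not pass (adjusted p = 0.0843), and its low copper values were -0.07 and 0.61. SSA1 and SSA2 are close copies, and cross-hybridisation between them was not tested. MDJ1, the J-protein of the mitochondrial Hsp70, stood at 0.80 and 1.06.

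HSP104, the disaggregase that pulls proteins out of aggregates, stood at 1.16 and 1.34, or 2.38-fold higher (adjusted p = 0.0247). HSP82, an Hsp90, was at 0.85 and 0.72, and it lay at -0.002 and -0.10 in low copper. STI1, which joins Hsp70 to Hsp90, was at 0.93 and 1.05, and CPR6, an Hsp90-bound prolyl isomerase, at 0.96 and 1.30. HSP10, the cofactor of the mitochondrial chaperonin, was at 0.80 and 0.82. Outside the list but among the 15 highest were APJ1, a J-protein, at 3.20-fold higher, and ROQ1, which redirects the ubiquitin ligase Ubr1 under stress, at 3.53-fold higher. ZPR1, an assembly factor of eEF1A, stood at 1.35 and 1.83. The spots of APJ1 averaged 1.24 and 2.12, which is wide for 1 gene.

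Of 36 genes of the proteasome and its activator Rpn4, 0 passed, and their median was 0.18. Over all genes tested 1.41% fell and 0.849% rose, so 0 of 36 is near those shares. It is not read as a result about the list. RPN4 itself stood at 0.47 and 0.37 (adjusted p = 0.0828). Among 30 general stress genes under Msn2 and Msn4, 2 rose and 1 fell, with a median of 0.092. Those that rose were GLC3 and GSY2, the glycogen branching enzyme and a glycogen synthase, at 1.96-fold and 1.87-fold, and the one that fell was YGP1. CTT1, the cytosolic catalase, stood at -0.96 and -0.70 and did not pass. The 21 oxidative defence genes under Yap1 had 0 calls, which is also near the shares over all genes.

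**Figure D4:**
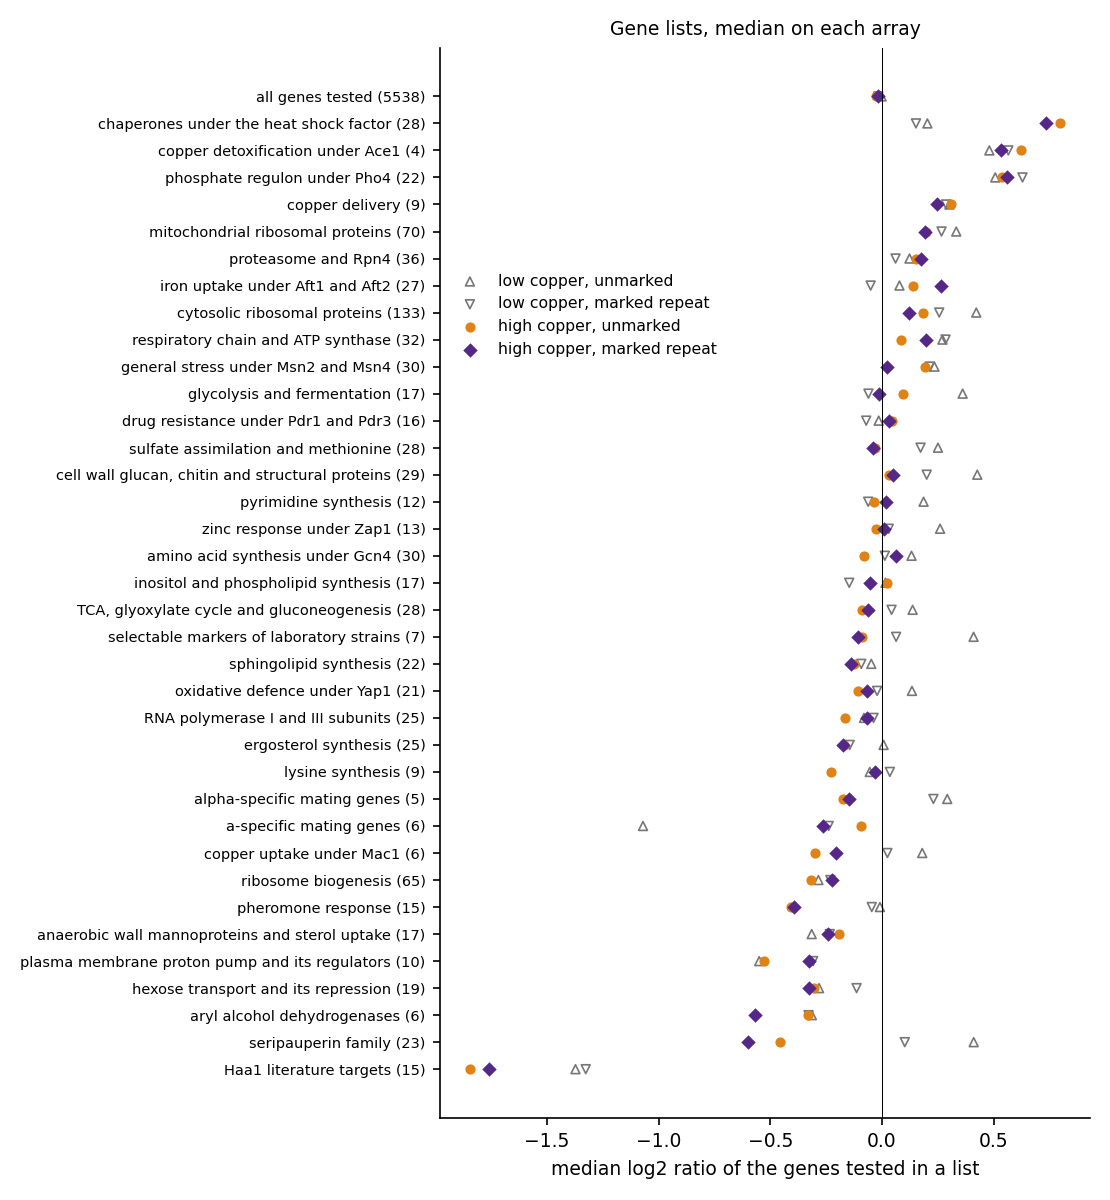
Median log2 ratio of null over wild type (x axis) on each array for all genes tested and for the 36 gene lists, with the number of genes tested in brackets, high copper values filled and low copper values open. The chaperone list has high copper medians of 0.74 and 0.80 beside low copper medians of 0.20 and 0.15, and the Haa1 targets lie lowest on every array.

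Genes of the phosphate regulon, which Pho4 turns on when phosphate is short, formed another raised group. Of 22 tested, 5 rose and 1 fell, and 19 lay above 0 on both arrays, with a median of 0.51. Without centring 3 of the 22 rose. Among all 5538 genes tested, 0.849% rose, 1.41% fell and 1964 lay above 0 on both arrays. SPL2, which lowers low-affinity phosphate uptake, stood at 2.52 and 2.30, or 5.31-fold higher (adjusted p = 0.0408). VTC3 and VTC1, subunits of the vacuolar polyphosphate polymerase, were 2.67-fold and 2.09-fold higher. PHO11 and PHO5, secreted acid phosphatases, were 2.24-fold and 1.85-fold higher. PHO5 and PHO11 are similar in sequence and may not be separate measurements.

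The phosphate transporters were high but did not pass. PHO84, the high-affinity transporter, stood at 2.26 and 1.54 (adjusted p = 0.0509), and PHO89, the sodium-coupled transporter, at 2.36 and 1.86 (adjusted p = 0.063). The gene of the list that fell was PHM8, which is also a literature target of Haa1. The low copper medians of the list were 0.51 and 0.63, near those in high copper.

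Of 4 copper detoxification genes under Ace1, 2 rose in null cells, and 1 of them, CUP1-2, did not pass without centring or on the deposited spot positions. The spot of CUP1-2 itself lies outside the moved block. Among all genes tested 0.849% rose. CUP1-1 and CUP1-2, the metallothionein genes that bind excess copper, stood at 0.85 and 0.76 and at 0.71 and 0.72, or 1.75-fold and 1.64-fold higher (adjusted p = 0.0383 and 0.0429). They are copies of 1 gene and are not separate measurements. Their low copper values, 0.65 and 0.59 for CUP1-1 and 0.68 and 0.55 for CUP1-2, were close to those in high copper. CRS5, the other metallothionein, stood at 0.36 and 0.21, and SOD1, the copper-zinc superoxide dismutase, at 0.35 and 0.52, and neither passed.

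Copper uptake genes under Mac1 lay slightly below 0. Of the 6 tested, 1 fell, IRC7, a cysteine-sulfur lyase, at -0.77 and -0.68 (adjusted p = 0.0492), a call lost without centring or on the deposited spot positions. Among all genes tested 1.41% fell. The high-affinity copper transporters did not pass, with CTR1 at -0.17 and -0.20 and CTR3 at -0.24 and -0.39. Among the metalloreductases, FRE7 stood at -0.45 and -0.50 and FRE1 at 0.18 and -0.20, on opposite sides of 0. REE1 also took opposite signs, at -0.078 and 0.053. On both arrays, 1964 of all 5538 genes tested lay above 0. Of 9 genes for copper delivery and copper sensing, 0 passed, which is near the share over all genes, and 7 lay above 0 on both arrays. The nearest to the threshold among them, COX17, which carries copper towards cytochrome oxidase, stood at 0.27 and 0.58 (adjusted p = 0.122), and CUP2, the gene of Ace1 itself, at 0.25 and 0.39.

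Of the 27 genes for iron uptake that Aft1 or Aft2 control, 3 rose and 0 fell, and the list median was 0.17. On both arrays 16 of them lay above 0 and 7 below, beside 1964 and 2347 of all 5538 genes tested. Over all genes 0.849% rose and 1.41% fell. FIT2, a cell wall mannoprotein that retains iron-siderophores, stood at 2.61 and 2.16, or 5.22-fold higher (adjusted p = 0.0182), and at 0.19 and 0.12 in low copper. TIS11, which degrades messengers of iron-using proteins, stood at 1.39 and 1.60, or 2.82-fold higher (adjusted p = 0.0217), and lay below 0 in low copper at -0.13 and -0.28. FET3, a copper-dependent ferroxidase of high-affinity iron uptake, stood at 0.84 and 1.16 (adjusted p = 0.0492). Without centring or on the deposited spot positions 2 of the 27 genes rose. FIT3, a relative of FIT2, stood at 0.48 and 0.52 and did not pass, and ARN2, a siderophore transporter, stood at 0.72 and 0.53 (adjusted p = 0.0627).

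The zinc response genes under Zap1 had 1 call among 13, INO1. ZRT1, the high-affinity zinc transporter, stood at 0.81 and 0.93 and ZPS1, a zinc-regulated cell surface protein, at 1.28 and 1.08, with adjusted p of 0.0684 and 0.0542. Both were higher in low copper, where ZRT1 stood at 1.70 and 1.25 and ZPS1 at 2.57 and 2.06.

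Of 19 genes of glucose uptake and repression, 4 fell and 1 rose, with a median of -0.44. Without centring 1 fell and 1 rose. The shares over all genes tested were 1.41% lower and 0.849% higher. HXT1, the low-affinity glucose transporter, stood at -1.27 on both arrays, or 2.41-fold lower (adjusted p = 0.0248). HXT5, a transporter of slowly growing cells, was 2.08-fold lower. MIG2 and MIG1, repressors of genes for other carbon sources, were 2.76-fold and 1.89-fold lower. HXT2, a high-affinity transporter, rose 2.76-fold, with 1.61 and 1.31. HXT3 stood at -1.24 and -1.10 and did not pass (adjusted p = 0.0605), with -0.11 and -0.66 in low copper.

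The plasma membrane proton pump list, 10 genes, had 2 that fell, and 1 without centring or on the deposited spot positions. Over all genes tested the share that fell was 1.41%. MRH1, a relative of YRO2, stood at -0.93 and -0.98, or 1.94-fold lower (adjusted p = 0.0334). HSP30, the third member of that family and a brake on the pump, stood at -0.66 and -0.74 (adjusted p = 0.0429). HSP30 was lower still in low copper, at -1.70 and -1.66. PMA1, the pump itself, stood at -0.55 and -0.61 and did not pass (adjusted p = 0.0566).

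Cell wall mannoproteins made without oxygen, and genes for sterol uptake, included 3 that fell among 17, DAN1, TIR3 and HES1. HES1, an oxysterol-binding protein, was 3.01-fold lower at -1.79 and -1.39, and TIR3, a wall mannoprotein, 2.01-fold lower at -1.01 on both. The seripauperins, a subtelomeric family of related wall proteins, had 2 calls among 23, PAU2 and PAU22, at 1.75-fold and 1.54-fold lower, and 0 calls without centring or on the deposited spot positions. Over all 5538 genes tested, 1.41% were lower and 2347 lay below 0 on both high copper arrays. The family lay below 0 on both high copper arrays in 20 of 23, with medians of -0.60 and -0.46, beside low copper medians of 0.41 and 0.10. Its members are nearly identical, so these are not separate measurements.

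Of the genes of amino acid metabolism and transport named here, HOM2, an enzyme towards threonine and methionine, rose 2.85-fold, with 1.39 and 1.63, and PHA2, an enzyme of phenylalanine synthesis, 2.84-fold. SHR3, which packages amino acid permeases for export from the endoplasmic reticulum, rose 2.70-fold, and SSY1, the amino acid sensor of the plasma membrane, 2.14-fold. HOM3, which opens the pathway that HOM2 continues, stood at 1.81 and 2.03 without passing (adjusted p = 0.173), since its low copper values were 2.88 and 0.33. ILV5, an enzyme of branched-chain amino acids, was the 1 call among 30 genes under Gcn4, at -0.81 and -0.99. GLN1, glutamine synthetase, was 1.89-fold lower, and ADE4, the first enzyme of purine synthesis, 2.21-fold lower.

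In pyrimidine synthesis, 2 of 12 genes fell, and 1 without centring or on the deposited spot positions. Among all genes tested 1.41% fell. URA1, dihydroorotate dehydrogenase, stood at -1.37 on both arrays, or 2.59-fold lower, and FUR1, which salvages uracil, was 1.90-fold lower. URA3, which laboratory strains often carry as a marker, stood at 2.02 and 2.28 in the moved block, where the deposited value was 0.18. It did not pass (adjusted p = 0.0627), with 2.98 and 1.83 in low copper. LYS2, also used as a marker, stood at -0.82 and -1.17, and LEU2 at -0.42 and -0.33. None of the 7 marker genes passed, and the strains' marker genotypes are not given in the sources used here.

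Mating genes were examined because they show the mating type and the state of the pheromone pathway. Of 15 pheromone response genes, 2 fell, AGA1, which anchors agglutinin to the wall, at -0.80 and -0.68, and KAR4, a transcription factor for nuclear fusion, at -0.73 and -0.74. Their low copper values were higher, at 0.52 and 0.36 for AGA1 and -0.0095 and -0.17 for KAR4. Without centring or on the deposited spot positions 0 of the 15 passed. The share of all genes tested that fell was 1.41%. Of 6 a-specific and 5 alpha-specific genes, 0 passed. MFA1, an a-factor gene, stood at -2.17 and -0.47, and BAR1, the protease that degrades alpha-factor, at -0.24 and -0.34. STE2 and STE3, the pheromone receptors, stood at -0.64 and -0.18 and at -0.15 and -0.26.

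Of 65 ribosome biogenesis genes, 1 fell, NOP2, an RNA methyltransferase, and 1 rose, DBP3, an RNA helicase, by 1.28 on the log2 scale. Neither passed without centring. Over all genes tested 1.41% were lower and 0.849% higher, and the counts of this list are near those shares. The list as a whole lay slightly below the centre, with 59 of 65 below 0 on both arrays and a median of -0.25. Of all 5538 genes tested, 2347 lay below 0 on both arrays, and their median over all genes was -0.025. The low copper medians of the list were -0.29 and -0.23. The 133 cytosolic ribosomal protein genes had 0 calls and a median of 0.16, and the 70 mitochondrial ones 0 calls and 0.18. Many cytosolic ribosomal protein genes exist as near-identical pairs and are not separate measurements.

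MDH2, cytosolic malate dehydrogenase, was the 1 call among 28 genes of the TCA cycle, glyoxylate cycle and gluconeogenesis, at 2.82-fold lower. ERG28, a scaffold of the sterol enzymes, was the 1 call among 25 ergosterol genes, at -0.73 and -0.86, and INO1 was the 1 call among 17 inositol and phospholipid genes. MDH2 and ERG28 did not pass without centring. With 1.41% of all genes tested lower, single calls in these lists and in the Zap1 and Gcn4 lists are not read as results about the lists. There were 0 calls among 32 genes of the respiratory chain, 17 of glycolysis, 28 of sulfate assimilation and methionine, 22 of sphingolipid synthesis, 29 of the cell wall, 25 of RNA polymerases I and III, 16 of drug resistance, 9 of lysine synthesis and 6 aryl alcohol dehydrogenases. Counts of 0 in lists of this size are likewise not read as results about the lists. RIP1, the iron-sulfur protein of the respiratory chain, was the highest of its list at 1.69 and 1.56 (adjusted p = 0.0603), with 0.79 and 1.62 in low copper.

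In all, 8 of the 125 called genes have spots in the moved block alone. Beside PHM8, TPO3, COM2 and CUR1 they were YGR126W, at 2.93-fold lower, ARE2, a sterol acyltransferase, at 1.90-fold lower, and DSE1 and ISF1, at 1.60-fold and 1.84-fold higher. Their deposited values on the array marked repeat lay between -0.33 and 0.28. GIS4 and ICY1, also in this block, lay over 2-fold lower on both arrays and did not pass, at -1.46 and -1.21 and at -1.01 and -1.29.

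Of the 78 lower genes, 70 had a value on both low copper arrays and 61 of those lay below 0 on both. Of the 47 higher genes, 45 had both values and 41 lay above 0 on both. These are 87.1% and 91.1%, where 55% of all genes below 0 on both high copper arrays, and 55% of those above 0, kept their sign on both low copper arrays. Called genes have means of at least 0.62 in size, while the genes behind the 55% have no such limit. The fit that called them also used the spread of the low copper pair. All 4 arrays share the dye orientation and may share wild-type RNA. Agreement in sign is therefore a description. Of 31 called genes that were at least 2-fold lower on both high copper arrays and measured on both low copper arrays, 19 were 2-fold lower on both of the latter, and of 23 such higher genes 5 were 2-fold higher.

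The difference between conditions itself gave 0 calls of 5534 genes (0%) in limma at an adjusted p below 0.05, and 806 genes lay below 0.05 without adjustment. BTN2 had the smallest adjusted p, 0.0864, with a difference of 2.46 in log2 units. FIT2 differed by 2.23, TIS11 by 1.70 and SSA4 by 1.28, each with an adjusted p of 0.223. Of the 28 chaperone genes, 26 were higher in high than in low copper, with a median difference of 0.62, and of the 27 iron genes 21 were, with 0.27. Over all genes the median difference was 0.003. Which array is left out decides this comparison. Without the low copper array marked repeat 781 genes were called, without the unmarked low copper array 2, and without either high copper array 0.

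**Figure D5:**
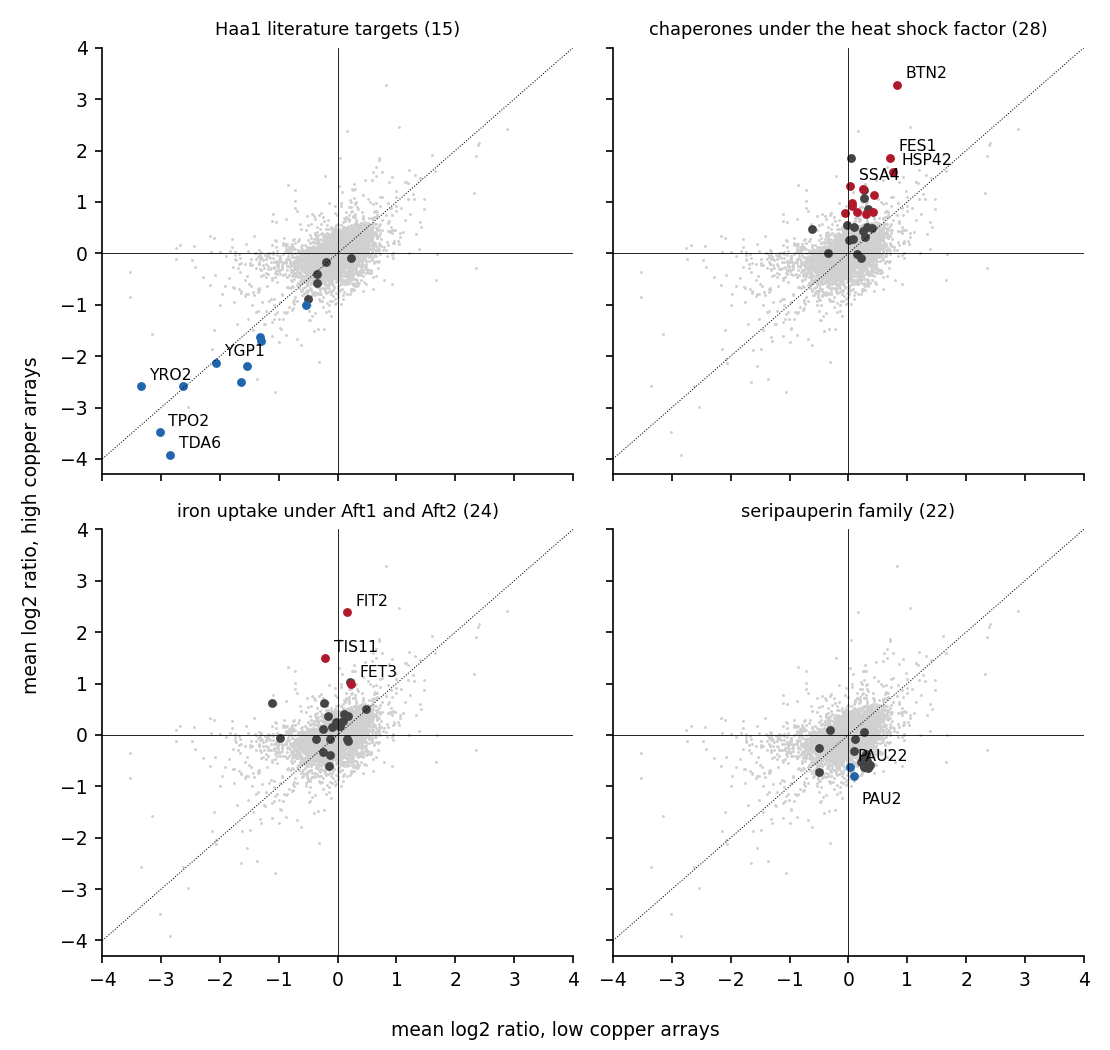
Mean log2 ratio of null over wild type on the low copper arrays (x axis) and the high copper arrays (y axis) for members of 4 lists with values on all 4 arrays, called genes in blue (lower) and red (higher), uncalled members in black and other genes within the axis limits in grey. Chaperones lie mostly above the dotted line of equal values, seripauperins mostly below it, and Haa1 targets lie low on both axes.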

How the data were processed

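Total RNA of wild-type cells (Cy3) and lpz8 null cells (Cy5) was compared on 4 two-channel arrays. The deposited table gives 1 log ratio per spot and array, taken here as log2 of Cy5 over Cy3. The authors' normalization, log base, direction and array build are not given in the sources used here. On the unmarked high copper array, whole ratios accounted for 29 of 59 deposited values beyond 2.9 when read as log2, with a tolerance of 0.0011, against 5 when read as natural logs. On the array marked repeat this was so for 1 of 56 against 7, so there the base rests on the other array. The dyes were taken from the labels. Channel intensities were not used here, so signal over background is unknown, and the number of arrays limits the precision.

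Replicates were numbered in record order: high copper replicate 1 is the array marked repeat, high copper replicate 2 the unmarked one, low copper replicate 1 the unmarked one and low copper replicate 2 the array marked repeat. Values were missing for 4.79% and 5.82% of spots on the high copper arrays and for 17.9% and 5.42% on the low copper arrays. All columns were used. The platform annotation gave 1 gene to 6956 of 8832 spots, updated through RefSeq gene IDs (6956 matched), and none to 1876.

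The run of 528 spots on the array marked repeat was moved 24 spots on, since the match was better there with each of the other 3 arrays. The first 24 spots of the block, of which 0 are named, were then missing, and 23 named spots of the block's last row took moved values. Arrays were centred on the median of the spots with values on all 4, and spots of a gene were averaged. Of 1167 genes with several spots, 102 (8.74%) had spot means over 1 apart. With lmFit and eBayes of limma 3.58.1 (R 4.3.3), the model had a mean per copper condition, 2 residual and 2.08 prior degrees of freedom. Of the 5538 genes on both high copper arrays, 383 had 1 low copper value and 4 had none, and these kept fewer degrees of freedom. P-values were adjusted by Benjamini-Hochberg over all genes tested, with a threshold of 0.05. The fit was tested on simulated data. Tables were handled in Python 3.11.15.

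The 36 gene lists, the genes and the tests were chosen with earlier results of these data known. Named by rule were HAA1, the 15 lowest and 15 highest called genes with 1 sign on both high copper arrays, all members of lists of up to 6 genes and the 4 of smallest p of larger ones, the 3 lowest and 3 highest differences between conditions, genes of the moved block with 2-fold values, and the 3 genes with the largest gap between the arrays. Other genes were chosen after their values were seen. These are HSP104, CPR6, STI1, MDJ1, HSP82, SSA2, SSA1, HSP10, CUR1, SSY1, AQR1, ADE4, GLN1, MIG1, PHO5, PHO84, PHO89, GRE1, GPG1, SPI1, INM1, HSP26, ARE2, DSE1, ISF1, FIT3 and HXT3. Alternatives were other centring and scaling, other treatments of the moved spots, separate spots, each array left out, the high copper pair alone, a robust prior and a replicate block. Centring each of the 16 blocks of spots on its own median was added after seeing the data.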

Additional observations from a re-analysis of the deposited data

Results flagged for a closer look

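Among the named genes, 6 called ones had both high copper values on one side of 0 and both low copper values on the other. AGA1 differed between high and low copper by -1.18, ERG28 by -0.96, ILV5 by -0.99 and PAU22 by -0.64, while HSP82 differed by 0.84 and TIS11 by 1.70. In limma's test of the difference none passed, with adjusted p of 0.251 for AGA1, ERG28, ILV5 and HSP82, 0.26 for PAU22 and 0.223 for TIS11.

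The medians of 7 gene lists also lay on opposite sides of 0 in the 2 conditions on every array. The median difference of high minus low copper was -0.29 for copper uptake under Mac1, -0.094 for sulfate assimilation and methionine, -0.78 for the seripauperin family, -0.037 for the TCA and glyoxylate cycles and gluconeogenesis, 0.061 for drug resistance under Pdr1 and Pdr3, -0.35 for the alpha-specific mating genes and -0.25 for the selectable markers. These differences of medians were not tested. In some of these lists the sign of the high copper median changed with the setting. With genes measured on all 4 arrays it went from -0.060 to 0.027 for the TCA list and from 0.0138 to -0.0052 for drug resistance. For sulfate assimilation the median of the gene means was 0.0105, and -0.0162 with blocks centred.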

How the results depend on the processing

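The 125 calls in high copper became 61 without centring (34 lower and 27 higher), 323 after each array was scaled to the same spread (200 and 123), 79 with spots as deposited (46 and 33), and 484 with the high copper pair alone (288 and 196). They numbered 116 to 144 with the moved block left out, genes measured on all 4 arrays, a robust prior or blocks of spots centred. With spots kept separate, 96 spots were called, a count of spots and not of genes. Leaving out 1 array gave 0 to 484 calls, 0 without either high copper array (567 and 491 genes at unadjusted p below 0.05) and 484 without either low copper array. An array left alone in its condition was assumed to vary like the other pair. A lone low copper array adds no spread of its own, so for high copper it gives the same result as the pair alone. The 101 genes at least 2-fold changed became 181 to 216 when 1 high copper array was left out, since then only 1 array had to pass. Under the other settings that count genes they lay between 76 and 125, and with spots kept separate 151 spots were 2-fold changed. For high minus low copper, leaving out 1 array gave 0 to 781 calls (291 lower and 490 higher at most), and every other setting gave 0. Nothing in the labels says that the word repeat marks a shared batch, and deviations of the arrays so marked correlated at 0.099 (Pearson) and 0.155 (Spearman), so the arrays were not treated as paired. With that word as a replicate block 0 genes passed (1219 unadjusted, smallest adjusted p 0.057). That block leaves 1 residual degree of freedom in place of 2. Signs of uncalled genes turned when 1 high copper array was left out for ASG7 (-0.069 to 0.74), ECM23 (-2.01 to 1.09), FRE1 (-0.20 to 0.18), HSP26 (-0.36 to 0.17) and REE1 (-0.078 to 0.053), for REE1 (0.040) with blocks centred, and for ATP17 (-0.20), CWP1 (-0.27) and OPI1 (0.0060), all 3 in the moved block, with spots as deposited. The 10 calls among Haa1 targets became 7 with spots as deposited or the moved block left out and 11 with the pair alone or genes measured on all 4 arrays. The 12 chaperone calls ran from 6 without centring to 18 with the pair alone, and the 5 raised phosphate genes from 3 to 11. With blocks centred ARE2, HSP30, IRC7, MIG1 and PAU2 no longer passed (adjusted p of 0.053 to 0.0662). The cause of these shifts was not tested.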

Other observations

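Single genes with large values on 1 array stood outside the calls. FIG1, a mating protein of the plasma membrane, was at -2.05 on the array marked repeat and -7.08 on the unmarked array. RAD9, a DNA damage checkpoint protein, was at -5.07 and -0.44, and OSW1, a spore wall gene in the moved block, at -4.82 and -0.24. In each, the gap between the high copper arrays exceeded 4 log2 units, and none passed the threshold.

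The largest differences between conditions likewise came from genes with an incomplete or uneven set of values. FAA2, an acyl-CoA synthetase, stood at 0.34 and 0.53 in high copper and at -4.79 on the 1 low copper array that measured it, and YNR048W at -0.44 on both and -3.79. YGL081W stood at -0.63 and -0.091 in high copper and -6.72 and -0.33 in low copper. ARG3, an arginine synthesis enzyme, was the exception with paired values, at -0.19 and -0.38 in high copper and 2.87 and 1.84 in low copper (difference -2.64, adjusted p = 0.251).

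Spots without a gene name were at least 2-fold changed on both high copper arrays more often than named spots, 86 of 1323 (6.5%) against 151 of 6808 (2.22%). Medians of the 16 blocks of spots ranged from -0.087 to 0.135 on the array marked repeat and from -0.11 to 0.16 on the unmarked high copper array.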
